A study of Mus musculus with 12 samples.

Results

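Rgs1, Rgs2, Rgs10 and Rgs19 encode regulators of G protein signalling and are 4 of the 31053 genes listed for sorted mouse brain myeloid cells. They were chosen by gene symbol because Rgs1 had been seen to be high after warm digestion without inhibitors, so its level in that preparation is what chose the set and is described here without a test. Rgs2, Rgs10 and Rgs19 were taken as its expressed relatives. The files hold 21 genes whose symbol is Rgs followed by a number, and the remaining members of the family are described further on.

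RGS proteins bind the active, GTP-loaded alpha subunit of a heterotrimeric G protein and speed up the hydrolysis of its GTP, which shortens the signal sent by a G protein-coupled receptor. In leukocytes and microglia such receptors read chemokines, nucleotides and complement fragments, and many of them act through the Gi class. Rgs1 and Rgs2 are small members of the R4 class and are known as genes that stimulation can induce. Rgs10, of the R12 class, is known for its high expression in microglia, and Rgs19, also called GAIP, belongs to the RZ class and acts on Gi class subunits.

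Single-cell RNA sequencing with the 10x Genomics 3′ version 2 chemistry was carried out on CD45+/CD11b+ cells sorted from the whole brain of 12 male C57BL/6J mice at postnatal day 90, with 1 library per animal and 3 animals in each of 4 preparations. DNC-NONE was dissociated in a cold Dounce homogeniser without inhibitors, and DNC-INHIB in the same way with transcription and translation inhibitors (actinomycin D, triptolide and anisomycin). ENZ-NONE was digested with enzymes in the warm without inhibitors, and ENZ-INHIB in the same way with them. The mice carried no transgene or deletion by the labels, and the labels divide the libraries into 2 batches, each holding at least 1 library of every preparation. Libraries are named below by preparation and by the replicate number of their label.

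The deposited matrices held 28426 barcodes and 2118143 to 3654465 UMIs (unique molecular identifiers, each a captured transcript molecule) per library. Cells below 500 genes or 1000 UMIs, or above 10% mitochondrial UMIs, were left out, and 18826 cells were kept, 853 to 2185 per library. Median depth was 1153 to 1572 UMIs per cell. The 9 microglial markers summed to 33215 to 39042 CPM (a gene's UMIs scaled to the same total of 1e+06 UMIs in each library) in every library, with none of the markers at 0. The sort also held other myeloid cells, since the 8 border macrophage markers summed to 212 to 518 CPM and the 5 neutrophil markers to 0 to 2680 CPM. In all, 503 barcodes occurred in more than 1 library, and any pair of libraries shared 2 to 16.

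In the GRCm38 build with GENCODE M21, Rgs1 (ENSMUSG00000026358) lies at chr1:144242296-144249242 and Rgs2 (ENSMUSG00000026360) at chr1:143999338-144004161, both on the minus strand and within 1 run of Rgs genes. Their order along the chromosome is Rgs2, Rgs13, Rgs1, Rgs21 and Rgs18, all on the minus strand, with gaps of 134492, 64923, 267405 and 185015 bases. Rgs10 (ENSMUSG00000030844) lies at chr7:128373621-128418758 and Rgs19 (ENSMUSG00000002458) at chr2:181688419-181693977, also on the minus strand. Rgs10 overlaps the non-coding transcript Gm15503 on the same strand, so its count is uncertain by the reads that both could claim. The other 3 members overlap no annotated gene.

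Rgs2 and Rgs10 are represented by their promoters, as the chromosomal neighbour of Rgs1 and as the most abundant member. The sequences are RefSeq promoters of GRCm38.p6, chr1:144004100-144004399 and chr7:128418123-128418422 on the minus strand, read from 250 bases before to 50 bases after the annotated start, with the bases after the start in capitals. The table held 3 of the 4 members, with no entry for Rgs1.
Rgs2: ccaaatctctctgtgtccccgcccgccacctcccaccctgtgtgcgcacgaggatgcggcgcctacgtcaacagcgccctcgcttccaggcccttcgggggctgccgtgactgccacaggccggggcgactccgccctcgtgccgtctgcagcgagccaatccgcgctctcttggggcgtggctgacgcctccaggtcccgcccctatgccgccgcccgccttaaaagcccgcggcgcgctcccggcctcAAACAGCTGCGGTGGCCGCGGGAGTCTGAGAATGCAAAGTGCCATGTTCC
Rgs10: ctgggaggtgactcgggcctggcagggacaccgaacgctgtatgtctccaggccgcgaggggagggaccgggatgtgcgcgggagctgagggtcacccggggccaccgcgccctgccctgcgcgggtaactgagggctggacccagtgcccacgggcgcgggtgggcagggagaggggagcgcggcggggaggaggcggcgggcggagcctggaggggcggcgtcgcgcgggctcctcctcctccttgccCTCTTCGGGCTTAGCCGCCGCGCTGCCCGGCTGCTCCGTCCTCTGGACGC
Both strands were searched for AP-1 (TGANTCA), CRE (TGACGTCA), NF-kB, CArG box and heat shock element motifs, which 7.81%, 1.79%, 20.7%, 1.63% and 0.603% of all 32851 promoters in the table hold at least once. Rgs2 matched none of them and Rgs10 matched the NF-kB motif once. The 3 windows of Rgs19, not all of which overlap, held 4 NF-kB matches and none of the others. A match in a stretch shared by windows was counted in each of them. A match or its absence describes only the letters of this window.

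Rgs1 was rare in 3 preparations and several-fold higher in the fourth. DNC-NONE libraries 1, 2 and 3 held 69, 25 and 39 Rgs1 UMIs, or 27.6, 23.6 and 21.6 CPM. DNC-INHIB libraries 4, 5 and 6 held 58, 72 and 74 UMIs, or 27.6, 27.4 and 22.9 CPM. ENZ-INHIB libraries 1, 2 and 3 held 55, 91 and 59 UMIs, or 29.6, 34.3 and 23.0 CPM. These 9 libraries overlapped across their 3 preparations. ENZ-NONE libraries 4, 5 and 6 held 175, 149 and 350 UMIs, or 80.3, 97.0 and 128 CPM. Each of them lay above all 9 of the others, and the lowest ENZ-NONE library was 80.3 CPM against a highest value elsewhere of 34.3 CPM.

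Rgs1 averaged 102 CPM ± 24.3 over the ENZ-NONE libraries (SD, n = 3), while DNC-NONE had 24.3 ± 3.04, DNC-INHIB 25.9 ± 2.65 and ENZ-INHIB 29.0 ± 5.68. The ENZ-NONE mean was thus 4.20-fold, 3.93-fold and 3.52-fold that of these preparations. On the log2 scale of the edgeR fit the differences were 2.10 (SE 0.19), 2.04 (SE 0.18) and 1.86 (SE 0.18). They carry no p-value because this contrast is the one by which Rgs1 was picked. In the same 3 contrasts 0.617%, 0.799% and 0.385% of the 9882 genes tested were called, that is, had an adjusted p under 0.05 and a log2 difference past 0.58 in either direction. Counting only genes higher in ENZ-NONE, the shares were 0.425%, 0.496% and 0.385%. ENZ-NONE library 6 was the highest of its group in Rgs1 and was also the only one of batch 2. Within batch 1 alone ENZ-NONE had a mean of 88.7 CPM over 2 libraries, with 25.6 CPM for DNC-NONE, 27.6 for DNC-INHIB and 29.6 for ENZ-INHIB. Within batch 2 it had 128 CPM in its 1 library against 21.6, 25.1 and 28.6 CPM.

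**Figure D1:**
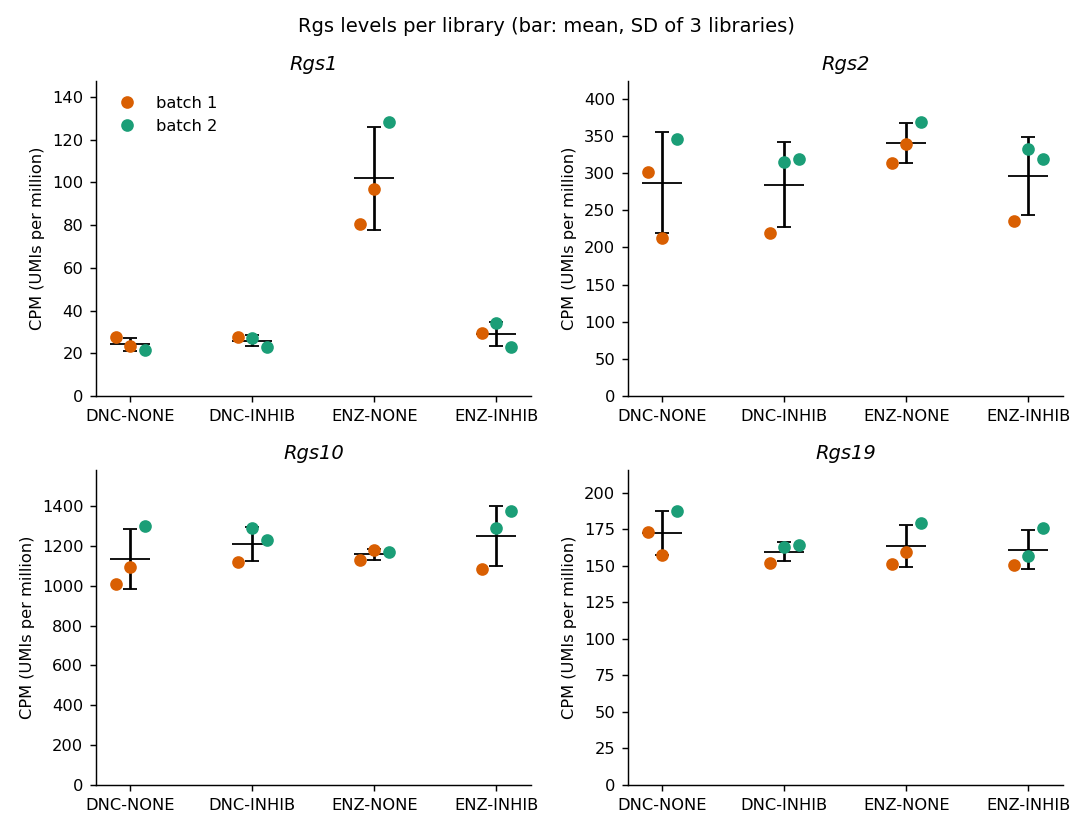
Level of Rgs1, Rgs2, Rgs10 and Rgs19 in each of the 12 libraries (y axes, CPM, linear and starting at 0, with a scale of its own in each panel), by preparation (x axes). Points are libraries coloured by batch, and black bars are the mean and SD of 3 libraries. Rgs1 lies between 80.3 and 128 CPM in ENZ-NONE and between 21.6 and 34.3 CPM elsewhere, while the preparations overlap for the other 3 genes.

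The relatives were more abundant than Rgs1 and their preparations overlapped. A 3′ assay counts each captured molecule once whatever the length of its transcript, so CPM can be set side by side across these genes, apart from differences in capture. Rgs10 was the most abundant, with 1008 to 1377 CPM over the 12 libraries. Rgs2 ranged from 213 to 369 CPM and Rgs19 from 150 to 188 CPM. The ranges of the 4 genes over the 12 libraries did not overlap.

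Rgs2 is known for acting on Gq class alpha subunits. Its values were 302, 213 and 346 CPM in DNC-NONE libraries 1, 2 and 3, and 219, 315 and 319 CPM in DNC-INHIB libraries 4, 5 and 6. It had 314, 339 and 369 CPM in ENZ-NONE libraries 4, 5 and 6, and 235, 332 and 320 CPM in ENZ-INHIB libraries 1, 2 and 3. The ENZ-NONE libraries lay in the upper part of the range, although 5 libraries of the other preparations lay above the lowest of them. Their mean of 340 CPM ± 27.5 stood beside 287 ± 67.5 for DNC-NONE, 285 ± 56.6 for DNC-INHIB and 296 ± 52.7 for ENZ-INHIB. The log2 differences were 0.28 (SE 0.18), 0.30 (SE 0.17) and 0.23 (SE 0.17), and with batch in the fit 0.28, 0.46 and 0.39. Within batch 1 the ENZ-NONE libraries had 314 and 339 CPM and the others 213 to 302, and within batch 2 it had 369 and the others 315 to 346, so within either batch ENZ-NONE lay highest. These values are a description, since the contrast is the one that chose the genes.

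Rgs10 had 1008, 1093 and 1303 CPM in DNC-NONE and 1121, 1288 and 1229 CPM in DNC-INHIB, in the order of the libraries above. It had 1128, 1180 and 1169 CPM in ENZ-NONE and 1086, 1293 and 1377 CPM in ENZ-INHIB. The ENZ-NONE libraries lay inside the range of the others. Their log2 differences from the other preparations, in the order used above, were 0.07, -0.02 and -0.08, each with an SE of 0.11.

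Rgs19 had 173, 158 and 188 CPM in DNC-NONE, 152, 163 and 164 CPM in DNC-INHIB, 151, 160 and 179 CPM in ENZ-NONE and 150, 157 and 176 CPM in ENZ-INHIB. The log2 differences of ENZ-NONE were -0.04, 0.08 and 0.06, again each with an SE of 0.11.

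The comparisons that leave out ENZ-NONE were not used to choose the genes and were tested. They ask whether inhibitors change the cold preparation and whether digestion under inhibitors differs from Dounce. The share of all 9882 tested genes called was 0% between DNC-NONE and DNC-INHIB (466 at an unadjusted p under 0.05, and 1 called by DESeq2), 0.152% between ENZ-INHIB and DNC-INHIB and 0.101% between ENZ-INHIB and DNC-NONE. Of these shares, 0.0101% and 0.0101% were genes higher in ENZ-INHIB, and 0.142% and 0.0911% genes lower in it. None of the 4 members was called in any of the 3 by edgeR's quasi-likelihood test with Benjamini-Hochberg adjustment, and their lowest unadjusted p was 0.176, for Rgs10 between ENZ-INHIB and DNC-NONE. Rgs1 differed by -0.06 (95% interval -0.53 to 0.40, adjusted p = 0.999), 0.18 (-0.25 to 0.61, adjusted p = 0.869) and 0.24 (-0.22 to 0.71, adjusted p = 0.783) on the log2 scale. These intervals leave room for a change of Rgs1 of moderate size. Rgs10 differed by -0.10, 0.06 and 0.15, the last with an interval of -0.08 to 0.38 (adjusted p = 0.676). Rgs2 differed by 0.02 (-0.35 to 0.39), 0.06 and 0.05 and Rgs19 by 0.12, 0.02 and -0.10 in the same order (adjusted p from 0.842 to 0.999).

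**Figure D2:**
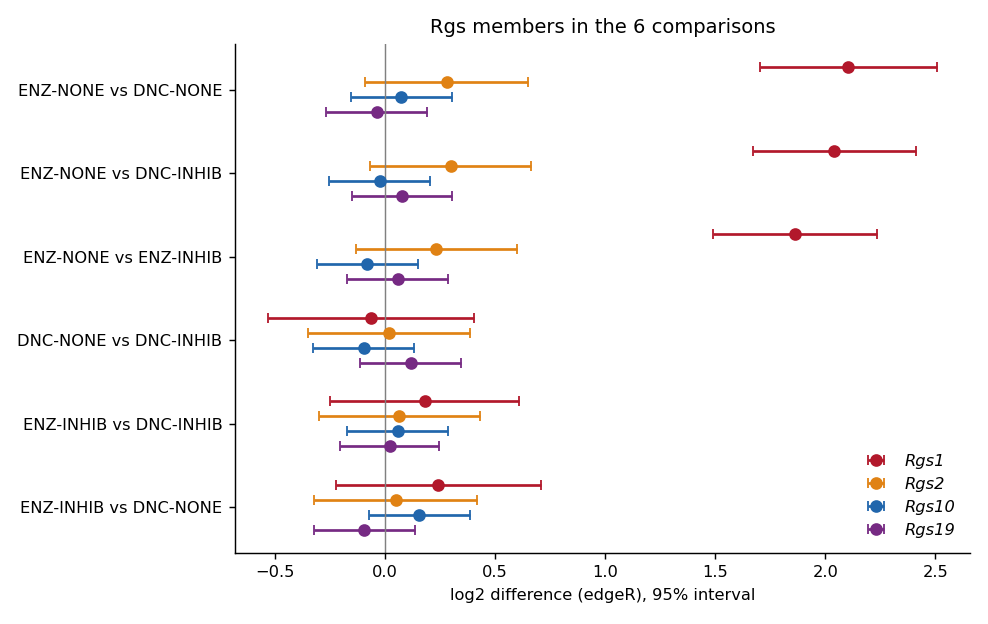
Log2 difference from the edgeR fit (x axis, 95% interval) of the 4 genes in the 6 comparisons between preparations (y axis). Rgs1 lies between 1.86 and 2.10 in the 3 comparisons with ENZ-NONE, where the other 3 genes lie between -0.08 and 0.30. In the lower 3 comparisons, which were tested, the intervals of all 4 genes include 0.

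The share of cells with at least 1 UMI shows in how many cells Rgs1 was detected. At so low a depth per cell it follows the mean level and is not the share of cells that express the gene. Cells were thinned to 1000 UMIs each so that depth was equal, which left out no kept cell. For DNC-NONE, Rgs1 was detected in 2.66%, 2.11% and 2.44% of cells, for DNC-INHIB in 2.59%, 2.92% and 1.88%, and for ENZ-INHIB in 2.57%, 3.23% and 2.27%. In ENZ-NONE it was detected in 6.43% (95% Clopper-Pearson interval 5.27 to 7.76), 6.89% (5.47 to 8.53) and 8.75% (7.47 to 10.2) of cells. The intervals cover counting error only. Without thinning the means were 9.56% ± 1.73 in ENZ-NONE while DNC-NONE had 3.12% ± 0.514, DNC-INHIB 3.44% ± 0.241 and ENZ-INHIB 4.16% ± 0.851.

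Positive cells also carried more Rgs1 molecules in ENZ-NONE. At 1000 UMIs per cell, 1.93% ± 0.959 of ENZ-NONE cells had at least 2 Rgs1 UMIs. DNC-NONE had none such in 4088 cells, DNC-INHIB 0.0648% ± 0.112 and ENZ-INHIB 0.0689% ± 0.0740. In the unthinned counts, 56 of 4436 ENZ-NONE cells had 3 or more and the highest had 11, while the other preparations together had 2 such cells, both in ENZ-INHIB. Cells with 2 or more UMIs held 57.0% of all Rgs1 UMIs in ENZ-NONE, and 3.01% to 9.80% in the other preparations. A larger library sum therefore came with both more positive cells and more UMIs per positive cell, which had 1.57 Rgs1 UMIs on average in ENZ-NONE and 1.02 to 1.06 elsewhere.

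For the relatives the shares at equal depth differed less between preparations. Rgs10 was detected in 67.4% ± 1.32 of ENZ-NONE cells, with means of 67.1% to 69.3% elsewhere. Rgs2 was detected in 27.5% ± 1.79 of ENZ-NONE cells, beside 24.6% ± 5.43 for DNC-NONE and 24.8% ± 3.35 for ENZ-INHIB. Rgs19 was detected in 14.7% ± 1.82 of ENZ-NONE cells and in 14.7% to 15.5% elsewhere. The difference of ENZ-NONE from the mean of the other 9 libraries was 4.84 percentage points for Rgs1, 2.65 for Rgs2, -0.79 for Rgs10 and -0.27 for Rgs19. For Rgs10 and Rgs19 it was smaller than the SD of the ENZ-NONE libraries, while for Rgs2 it was larger than that SD of 1.79 but smaller than the SD of 5.43 in DNC-NONE. These differences moved with the depth and the cells used. Thinning to 1500 UMIs left out 3395 cells of DNC-NONE, 4108 of DNC-INHIB, 2865 of ENZ-NONE and 2457 of ENZ-INHIB. In the cells left they were 5.63 points for Rgs1, 6.56 for Rgs2, 3.33 for Rgs10 and -2.18 for Rgs19. Over all kept cells without thinning they were 5.99, 3.72, 0.01 and 0.31 points in the same order. Over all barcodes thinned to 500 UMIs the Rgs1 difference was 2.95.

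**Figure D3:**
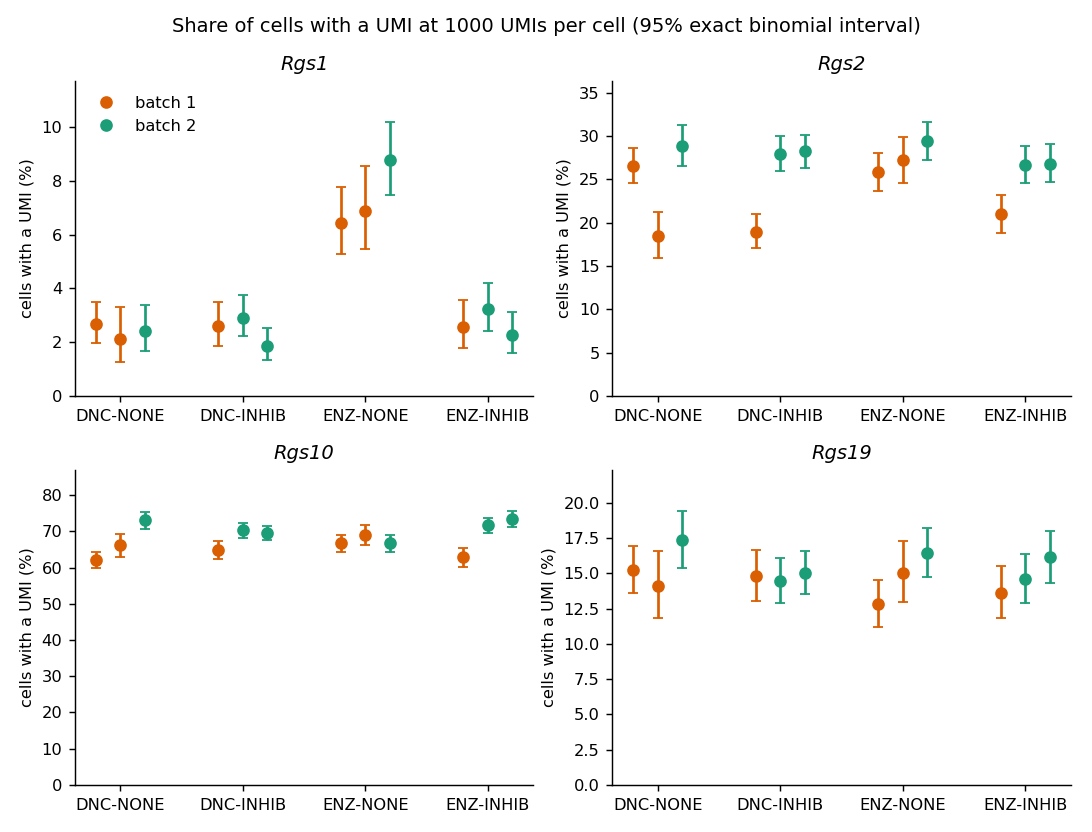
Share of cells with at least 1 UMI of each gene (y axes, percent, starting at 0) in the 12 libraries by preparation (x axes), after thinning every cell to 1000 UMIs. Points are libraries coloured by batch and error bars are exact binomial 95% intervals. For Rgs1 the ENZ-NONE libraries lie at 6.43% to 8.75% and the others at 1.88% to 3.23%, while for the other 3 genes the preparations overlap.

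Within ENZ-NONE, Rgs1 was set beside Fos, the immediate early gene of the AP-1 factor, in the same thinned cells. Cells with a Fos UMI had an Rgs1 UMI in 9.09%, 10.4% and 12.9% of cases in libraries 4, 5 and 6, and cells without a Fos UMI in 6.02%, 6.28% and 6.16%. The share was higher with Fos in each library. It also stood at 6.02% or more in cells without Fos, where the other 9 libraries had 1.88% to 3.18%. Library 6, the highest in Rgs1, had 677 Fos-positive cells of 1748, against 209 of 1570 in library 4 and 163 of 1118 in library 5. With and without a UMI of Dusp1, a phosphatase of MAP kinases, the Rgs1 share was 7.34% and 6.32%, 7.38% and 6.81%, and 12.4% and 7.18%. The 2 shares thus lay close together in libraries 4 and 5. The share of Rgs1-positive cells with and without an Rgs10 UMI was 6.30% and 6.69%, 6.74% and 7.20%, and 8.76% and 8.75%. With and without an Rgs2 UMI it was 9.36% and 5.41%, 6.25% and 7.13%, and 12.8% and 7.05%, so the 3 libraries differed in direction. With and without an Rgs19 UMI it was 4.98% and 6.65%, 5.36% and 7.16%, and 7.67% and 8.97%, lower with Rgs19 in each library. These shares come from cells of the same libraries and are given as a description.

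Cells were then divided into classes by clustering without Rgs genes, stress genes and immediate early genes, and the classes were named from markers. Microglia-like cells numbered 17769 of 18826, interferon-responsive-like cells 527, monocyte-like cells 109 and neutrophil-like cells 43. A further cluster of 378 cells was led by the antigen presentation genes H2-Aa, H2-Eb1, H2-Ab1 and Cd74 and the dendritic cell marker Cd209a, followed by the border macrophage markers Pf4, Ms4a7 and Mrc1. It was given no cell type name and is called the H2-Aa/Pf4 cluster. Socs3, Fos and Dusp1 were among the leading genes of a microglia-like cluster with 3145 cells, and ENZ-NONE library 6 gave 21.0% of it. The class levels that follow are descriptions.

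In microglia-like cells the pattern of the whole libraries recurred. Rgs1 had 99.4 CPM ± 22.1 (SD, n = 3) there in ENZ-NONE, beside 26.2 ± 3.34 for DNC-NONE, 27.0 ± 2.39 for DNC-INHIB and 30.1 ± 6.20 for ENZ-INHIB. Over all preparations the 5 microglia-like clusters had 37.3 to 59.2 CPM of Rgs1, but the share of ENZ-NONE cells ranged from 20.5% to 32.4% between them. Within ENZ-NONE they had 86.5 to 122 CPM, and the cluster with Socs3, Fos and Dusp1 (122 CPM) stood close to the one led by Capg and Cd83 (119 CPM). In the other 9 libraries they had 23.3 to 30.1 CPM. Rgs10 had 1150 to 1309 CPM across the same clusters.

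In the H2-Aa/Pf4 cluster Rgs1 was not detected outside ENZ-NONE. The 9 libraries of the other preparations had 0 Rgs1 UMIs in 296 such cells, which allows a share of positive cells of up to 1.01%. In ENZ-NONE, 13 of 82 cells had Rgs1 UMIs (15.9%, 95% Clopper-Pearson interval 8.72 to 25.6), with 3 of 23, 3 of 16 and 7 of 43 in libraries 4, 5 and 6. This interval pools cells over libraries and covers counting error only. The libraries had 6, 4 and 26 UMIs, or 151, 160 and 287 CPM. The summed level in ENZ-NONE, 232 CPM, was 41.6-fold a floor of 3 counts over the other 9 libraries together. This ratio leaves out the counting error of the ENZ-NONE level (95% Poisson interval 163 to 321 CPM). Library 6 held 26 of its 36 UMIs. Median depth was alike, with 1611 UMIs per cell in ENZ-NONE and 1654 in the other 9 libraries. The dendritic cell markers summed to 1.30 to 30.8 CPM in the whole ENZ-NONE libraries and to 12.5 to 81.8 CPM in the others, and the part of a change in the makeup of this cluster was not tested. Microglia-like cells of the same 9 libraries were not at 0, with 22.7 to 35.4 CPM.

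Rgs2 also stood higher in the H2-Aa/Pf4 cluster of ENZ-NONE. It had 227, 521 and 343 CPM in ENZ-NONE libraries 4, 5 and 6, from 9, 13 and 31 UMIs. The other 9 libraries had 20.6 to 210 CPM from 1 to 10 UMIs each, and the lowest ENZ-NONE value was close to the highest of the others. How many of all genes lie apart in this way in so small a cluster was not counted. The ENZ-NONE mean was 364 CPM ± 148, with 86.9 ± 60.1 for DNC-NONE, 60.2 ± 40.7 for DNC-INHIB and 140 ± 73.2 for ENZ-INHIB. Of the ENZ-NONE cells 32.9% had an Rgs2 UMI (95% interval 22.9 to 44.2), against 13.2% of the others (9.54 to 17.6). In microglia-like cells the Rgs2 mean was 340 CPM ± 32.5 in ENZ-NONE and 291 to 299 CPM elsewhere. Rgs10 in the H2-Aa/Pf4 cluster had means of 439 to 487 CPM in the 4 preparations, and Rgs19 94.8 to 174 CPM.

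**Figure D4:**
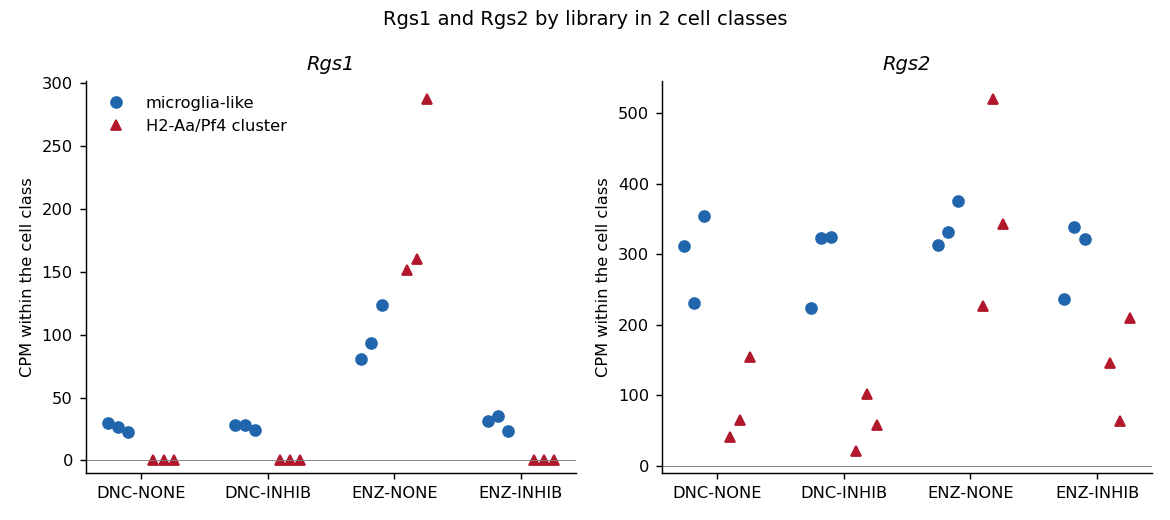
Rgs1 (left) and Rgs2 (right) level within a cell class (y axes, CPM, linear) by preparation (x axes), with 1 point per library for microglia-like cells (blue circles) and the H2-Aa/Pf4 cluster (red triangles). In the H2-Aa/Pf4 cluster Rgs1 is at 0 in 9 libraries and at 151 to 287 CPM in the 3 ENZ-NONE libraries, and Rgs2 is at 20.6 to 210 and at 227 to 521 CPM.

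Monocyte-like cells showed no Rgs1 at all. None of 109 cells had an Rgs1 UMI, at a median depth of 1925 UMIs. Free RNA in droplets could add UMIs to any class, and this class, with 0 UMIs, is the one it is read from here. In the 9 libraries without ENZ-NONE, 0 of 83 cells allows a share of up to 3.61%, and the unthinned Rgs1 shares over all cells were 3.12%, 3.44% and 4.16% by preparation, at or near that limit. In ENZ-NONE, 0 of 26 cells allows up to 11.5%, above the 9.56% of all ENZ-NONE cells and inside the interval of the H2-Aa/Pf4 cluster. At the cell numbers of this class the background was not bounded closely enough to be set apart from the Rgs1 shares. In the same 9 libraries the H2-Aa/Pf4 cluster had 0 Rgs1 UMIs in 296 cells, a limit of 1.01%. The part of free RNA in the Rgs1 shares was not tested. The same 109 cells had 269 CPM of Rgs2 (95% Poisson interval 204 to 350), 192 CPM of Rgs10 (137 to 262) and 135 CPM of Rgs19 (89.5 to 195).

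Rgs10 had the widest range of CPM across the classes. It had 1230 CPM (95% Poisson interval 1217 to 1244) in microglia-like cells and 1210 CPM (1132 to 1291) in interferon-responsive-like cells. In the H2-Aa/Pf4 cluster and in neutrophil-like and monocyte-like cells it had 457 CPM (408 to 510), 487 CPM (362 to 642) and 192 CPM. Rgs19 had 166 CPM in microglia-like cells and 120 to 205 CPM in the other classes, a narrower range. These intervals cover counting error only, and not the difference between animals.

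Rgs2 and Rgs10 differed between the 2 batches of the labels, a comparison made after the values by library had been seen. Rgs2 had a lowest, median and highest value of 213, 269 and 339 CPM in the 6 libraries of batch 1 and of 315, 326 and 369 CPM in the 6 of batch 2. Rgs10 had 1008, 1107 and 1180 CPM in batch 1 and 1169, 1291 and 1377 CPM in batch 2. Both genes thus lay higher in batch 2 with a small overlap. With batch added to the edgeR fit, batch 2 exceeded batch 1 by 0.43 (SE 0.08, adjusted p = 0.00378) for Rgs2 and by 0.24 (SE 0.05, adjusted p = 0.00994) for Rgs10 on the log2 scale, while 2.84% of all tested genes had an adjusted p under 0.05 for batch. Rgs19 differed by 0.20 (SE 0.06, adjusted p = 0.104) and Rgs1 by 0.21 (SE 0.14, adjusted p = 0.550). No member passed the log2 limit of 0.58, which 0.253% of all genes did together with the adjusted p. The Rgs10 difference was no longer past the threshold without DNC-NONE 3 (0.21, adjusted p = 0.0840) or without ENZ-INHIB 1 (0.20, adjusted p = 0.0921). Median depth was 1153 to 1319 UMIs per cell in batch 1 and 1200.5 to 1572 in batch 2, and its part in the difference was not tested.

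The rest of the RGS family was sparse in these cells. Of the 19 other genes with an Rgs symbol that were listed, including the binding proteins Rgs7bp and Rgs9bp, 4 passed the filter on low counts. Rgs5, Rgs13, Rgs20, Rgs21, Rgs22 and Rgs9bp had 0 UMIs in all kept cells, and the other 9 had 1 to 57. Rgs13 and Rgs21, which flank Rgs1 on chromosome 1, were thus not detected at this depth. None of the 4 tested genes was called in any of the 6 comparisons. Rgs3 had a mean of 27.6 CPM, close to the Rgs1 level outside ENZ-NONE, with 31.7 CPM ± 5.99 in ENZ-NONE and a log2 difference from DNC-NONE of 0.40 (SE 0.19, adjusted p = 0.590). It overlaps the antisense gene Gm11209, and the counting of strand is not given in the sources used here. Rgs7bp, which tethers R7 class RGS proteins to the membrane, had 14.9 CPM, and Rgs14, which also binds Gi class subunits, 8.35 CPM.

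Rgs18, a regulator known from platelets and myeloid cells, had 128 UMIs in all and was almost absent from microglia-like cells. It had 1 UMI in 17769 microglia-like cells, against 88 in the 378 cells of the H2-Aa/Pf4 cluster (127 CPM), 30 in 109 monocyte-like cells (144 CPM) and 9 in 43 neutrophil-like cells (87.7 CPM). Per library it had 22, 17 and 19 UMIs in DNC-NONE and 9, 6 and 11 in DNC-INHIB, means of 11.8 CPM ± 3.78 and 3.32 CPM ± 1.00, and the log2 difference of 1.75 (SE 0.51) had an unadjusted p of 0.0032 and an adjusted p = 0.893. ENZ-NONE had 1, 4 and 16 UMIs and ENZ-INHIB 13, 6 and 4. Marker lists of cells that could hold it overlapped between some preparations and not between others. DNC-NONE had 270 to 518 CPM of the border macrophage list, and the other preparations 212 to 351 CPM. The monocyte list had 154 to 270 CPM in DNC-NONE, 39.5 to 101 in DNC-INHIB, 48.2 to 179 in ENZ-NONE and 28.1 to 117 in ENZ-INHIB. For this list DNC-NONE thus lay above DNC-INHIB and ENZ-INHIB without overlap. Monocyte-like cells numbered 46 in DNC-NONE, 19 in DNC-INHIB, 26 in ENZ-NONE and 18 in ENZ-INHIB. The dendritic cell list had 47.7 to 67.0 CPM in DNC-NONE and 28.5 to 81.8 CPM in DNC-INHIB. It had 1.30 to 30.8 CPM in ENZ-NONE and 12.5 to 32.3 CPM in ENZ-INHIB. The neutrophil list had 0.400 to 2680 CPM in DNC-NONE and at most 331 CPM elsewhere, and the part of these cells in the Rgs18 difference was not tested. In library sums, fewer cells of a type and less RNA per cell cannot be told apart.

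The partners of RGS proteins were taken from lists of 25 G protein subunits, 12 modulators and 39 receptors, chosen with earlier results of these data known. With the other Rgs genes they made 95 genes, of which 56 were tested. None of the 56 was called in any of the 6 comparisons by edgeR, against 0.617%, 0.799%, 0.385%, 0%, 0.152% and 0.101% of all genes. In the same order 9, 8, 4, 2, 8 and 11 of the 56 had an unadjusted p under 0.05 in edgeR. Of all 9882 tested genes 850, 944, 516, 466, 829 and 1037 did. For the interaction, the effect of leaving out inhibitors in digested minus Dounce preparations, edgeR called 0 of the 56 and DESeq2 called 1. Of all genes 0.172% were called, every one of them higher. At an unadjusted p under 0.05 in edgeR were 5 of the 56 and 352 of all 9882 tested genes. Between ENZ-NONE and DNC-NONE the median log2 difference of the 56 was 0.04, beside 0.00231 for all genes.

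Among subunits, the Gi class alpha subunit Gnai2 was the most abundant with 558 CPM, followed by Gnas, the alpha subunit that stimulates adenylyl cyclase, with 480 CPM, and Gna15, of the Gq class, with 451 CPM. Gnai2 had 573 CPM ± 66.1 in ENZ-NONE and 547 to 563 CPM elsewhere. Among modulators, the most abundant were Arrb2 (448 CPM), which uncouples receptors from G proteins, Gpsm3 (166 CPM), which binds Gi class subunits, and the receptor kinase Grk2 (92.4 CPM). Gpsm3 had 152 CPM ± 1.22 in ENZ-NONE and 168 to 173 CPM elsewhere, and was not called.

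Among receptors, the microglial nucleotide receptor P2ry12 had 7546 CPM, the fractalkine receptor Cx3cr1 2373 CPM and the lysophosphatidylserine receptor Gpr34 2284 CPM. Hcar2, named after its values were seen, had 4.13, 5.86 and 55.7 CPM in ENZ-NONE libraries 4, 5 and 6 and 1.13 to 7.20 CPM in the others, so that library 6 alone carried it. Its adjusted p ranged from 0.127 to 0.309, and with batch in the fit it was called against DNC-INHIB (adjusted p = 0.0333) and ENZ-INHIB (adjusted p = 0.0312).

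Genes whose levels followed those of each member were ranked over the 12 libraries by Pearson's r of log2 CPM among 9881 genes. For Rgs1 they were Dusp1 (0.98), Jund, Hspa1b, Kctd12, Hspa1a, Rhob, Zfp36 and Hist1h2bc (0.95 each but for Jund with 0.96). These are a phosphatase of MAP kinases, an AP-1 subunit, inducible heat shock chaperones, a GABA-B receptor associated protein, a small GTPase, an mRNA decay factor and a core histone. The likeness to Rgs1 joins 2 separate sets of libraries, ENZ-NONE and the rest, and over the other 9 libraries r was between -0.10 (Hist1h2bc) and 0.67 (Kctd12). For the relatives different genes came first, Eif4b (0.91), Mia2 (0.90) and Uqcrb (0.88) for Rgs2, Sh3glb1 (0.97), Rnase4 (0.94) and Brk1 (0.92) for Rgs10, and Atp5j2 (0.95), Trappc1 (0.90) and Rpf2 (0.89) for Rgs19. Over the 9 libraries without ENZ-NONE these 9 values lay between 0.87 and 0.98. The genes were picked over 12 libraries that include these 9, so high values follow in part from the choice. Among the members themselves r was 0.48, -0.01 and 0.11 between Rgs1 and Rgs2, Rgs10 and Rgs19, and 0.51 to 0.71 among the remaining pairs. The 12 points share depth and batch, and the values are a description.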

How the data were processed

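The authors deposited raw UMI count matrices of genes by cell barcodes, 1 per library, made per their notes with bcl2fastq and Cell Ranger 3.0.0 on mm10. Positions came from GENCODE M21 and promoters from RefSeq. The members and lists were chosen with earlier results of these data known. Cells below 500 genes or 1000 UMIs, or above 10% mitochondrial UMIs, were left out. Cells with 3 genes and 5 UMIs of another cell type's markers were removed as doublets, only 4 in all, too few for the rule to have worked, and so the 2% highest Scrublet scores were removed in an alternative. Free RNA was not corrected for. Kept UMI counts were summed per library (1059783 to 3233159) and tested over all 12 libraries in 1 edgeR 4.0.16 quasi-likelihood fit (R 4.3.3, TMM, filterByExpr, no covariate), with Benjamini-Hochberg adjustment over 9882 genes. A call needed an adjusted p under 0.05 and a log2 difference past 0.58. DESeq2 1.42.0 was an alternative. The fit was tested on simulated data with known changes. Intervals of log2 differences used the fit's degrees of freedom. Shares used cells thinned to 1000 UMIs. Cells were clustered by Leiden (scanpy 1.11.5, resolution 1, 20 neighbours, 30 components, 2000 variable genes). Log2 CPM for likeness had a prior count of 2.

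Named were the 4 members in every library, other Rgs genes that passed the low-count filter, listed genes called in any comparison, the 3 most abundant of each list, the 8 genes most like Rgs1 and the 3 most like each other member, plus exceptions said to be chosen after their values were seen. Each library is 1 animal per the labels' design, and replicate libraries differed beyond sampling noise. Same-numbered libraries were not shown to be paired. The result for 1 listed gene is not reported here.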

Additional observations from a re-analysis of the deposited data

Results flagged for a closer look

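The barcodes that the cell filter left out, which enter only the alternatives with all barcodes, also held Rgs1. In them Rgs1 had a mean of 93.4 CPM ± 7.65 (SD, n = 3) in ENZ-NONE, from 120 UMIs in 1979 barcodes, with 85.8 to 101 CPM over the 3 libraries. DNC-NONE, DNC-INHIB and ENZ-INHIB had 22.8 ± 6.89, 20.3 ± 9.73 and 25.6 ± 5.05 CPM, and their highest library had 31.3 CPM. All 3 ENZ-NONE libraries thus lay above the 9 others, which is why the value is listed here. Rgs10 in the left-out barcodes had means of 758 to 967 CPM, below its means of 1134 to 1252 CPM in kept cells, and Rgs2 and Rgs19 had 224 to 286 and 154 to 195 CPM.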

How the results depend on the processing

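Of 745 values recomputed under alternatives, 701 were labelled the same, 24 moved, 18 reversed and 2 became weaker. In the tested comparisons the same meant an unchanged direction and side of the threshold. For ENZ-NONE differences and shares it meant a shift smaller than the SD between libraries, with direction checked for Rgs1 differences only. A small difference could then change sign, as for Rgs10 in ENZ-NONE vs DNC-NONE, -0.0065 to 0.19 with 1 library left out. For counts of called genes it meant an equal or similar count. The cause was not tested. The Rgs1 differences of ENZ-NONE stayed between 1.85 and 2.27 (DNC-NONE), 1.79 and 2.20 (DNC-INHIB) and 1.61 and 2.03 (ENZ-INHIB) with 1 library left out. Every reversed log2 difference was small. With batch as covariate, Rgs1 had 0.018 (DNC-NONE vs DNC-INHIB), Rgs2 -0.11 (ENZ-INHIB vs DNC-NONE) and Rgs10 0.059 (ENZ-NONE vs DNC-INHIB). Without the top Scrublet scores Rgs19 had -0.0069 (ENZ-INHIB vs DNC-INHIB).

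With 1 library left out, DNC-NONE vs DNC-INHIB ranged from -0.20 to 0.017 for Rgs1 and -0.15 to 0.18 for Rgs2. ENZ-INHIB vs DNC-INHIB ranged from -0.10 to 0.21 for Rgs2, -0.029 to 0.16 for Rgs10 and -0.060 to 0.079 for Rgs19. ENZ-INHIB vs DNC-NONE ranged from -0.12 to 0.20 for Rgs2, and ENZ-NONE vs DNC-INHIB from -0.025 to 0.14 for Rgs19. Batch 2 vs batch 1, added after seeing the data, ranged from -0.11 (without ENZ-NONE 6) to 0.29 for Rgs1 and from 0.20 to 0.29 for Rgs10.

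Listed genes called, 0 in the report, came to 3, 1 and 3 with no low-count filter for ENZ-NONE against the other preparations, in the order of the report, 2 for DNC-NONE vs DNC-INHIB, 5 for ENZ-INHIB vs DNC-NONE and 3 for the interaction. Batch as covariate gave 1 (Hcar2, ENZ-NONE vs DNC-INHIB), 2 (Hcar2 and Ccrl2, ENZ-NONE vs ENZ-INHIB) and 1 (interaction), all barcodes 1 (Ccrl2, ENZ-NONE vs ENZ-INHIB), and DESeq2 1 (interaction). With 1 library left out they were 0 to 1 for ENZ-NONE vs DNC-NONE (Rgs18 without ENZ-NONE 6), 0 to 2 vs DNC-INHIB, 0 to 2 vs ENZ-INHIB and 0 to 1 for the interaction. Same-numbered libraries deviated together with correlations of only -0.08 to 0.15, so pairing was neither shown nor excluded. DNC-INHIB libraries 4 and 6 were most like the ENZ-NONE library of their own number (0.11 and 0.15), and the remaining libraries compared were not. With the replicate block 1 listed gene was called (Ccr2, ENZ-INHIB vs DNC-NONE), where 77 genes of the whole table were called, against 33 in the same 6 libraries without the block. For ENZ-NONE vs DNC-INHIB the block gave 94 against 77.

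The excess of Rgs1-positive cells in ENZ-NONE was 2.95 points over all barcodes thinned to 500 UMIs. At 1500 UMIs, which left out 2457 to 4108 kept cells per preparation, the differences were 6.56 points for Rgs2, 3.33 for Rgs10 and -2.18 for Rgs19. Over all genes, no low-count filter gave 206, 212, 141, 86, 97 and 213 calls in the 6 comparisons (61, 79, 38, 0, 15 and 10 in the report) and 72 for the interaction (17). ENZ-INHIB vs DNC-NONE gave 19 with DESeq2 and with all barcodes, 33 with only the compared libraries, 62 without ENZ-NONE 6 and 0 without ENZ-INHIB 1 or 2. ENZ-INHIB vs DNC-INHIB gave 24 with batch, 33 with only the compared libraries, 23 in microglia-like cells and 2 to 23 with 1 library left out. ENZ-NONE vs DNC-NONE gave 38 with only the compared libraries and 40 to 90 with 1 library left out, ENZ-NONE vs DNC-INHIB 50 to 92, the interaction 7 to 19 and DNC-NONE vs DNC-INHIB 0 to 2. The Rgs2 differences of ENZ-NONE ranged from 0.083 to 0.44 over all libraries left out. The Rgs1 comparisons outside ENZ-NONE rest on 25 to 91 UMIs per library.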
